A study of Mus musculus with 8 samples.

Results

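The genes described here encode the machinery by which a nerve ending stores, releases and recovers neurotransmitter vesicles, and a set of adhesion proteins that hold the nerve ending to its target. The list holds 40 genes, taken by symbol as members of this machinery. Of these, 38 have a probe with a gene symbol in the tables used here, out of 16593 symbols in all, and 37 were bright enough to be tested among 12912 tested genes. Unc13a and Synj1 are not analysed here, and Snap25 was measured but not tested. A gene is represented by its brightest probe, the one with the highest mean over the 8 arrays.

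Neurotransmitter is loaded into small vesicles, which are tethered near the membrane by synapsins and scaffold proteins of the active zone. A vesicle fuses when the SNARE proteins of the vesicle (synaptobrevins) and of the plasma membrane (syntaxin and SNAP-25) zip together, a step that complexins clamp and synaptotagmins trigger when calcium enters. NSF and its SNAP adaptors then pull the SNARE complexes apart, and the membrane is recovered by endocytosis. In the cerebellum at the end of gestation most of these genes are transcribed in postmitotic neurons, before the bulk of synapses has formed.

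RNA came from cerebellum tissue of mouse embryos of 17.5 days, 1 Illumina BeadArray per animal, with 4 animals in each group. Wild-type (WT) animals carried the genotype Pals1 fl/fl;Cre-, and conditional knockout (CKO) animals carried Pals1 fl/fl;Cre+, so both groups share the floxed alleles and only CKO animals carry Cre. The transgene is hGFAP-Cre, driven by the human GFAP promoter and, according to the design text, deleting in the majority of neurons and glial cells of the cerebellum. Effects of Cre itself and of loss of Pals1 cannot be told apart, because no group carries Cre without the floxed alleles. Pals1 is a polarity scaffold that works with Crumbs at the apical cell surface, and the series asked whether it keeps cerebellar progenitors dividing.

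All levels below are log2 intensities after background correction and quantile normalization between arrays, and all changes are CKO minus WT on that scale, so that 1 unit is a 2-fold difference. Mpp5, the symbol under which the array lists Pals1, was at 7.09, 7.07, 7.09 and 7.01 in WT and 6.28, 6.19, 6.25 and 6.08 in CKO, and every CKO array lay below every WT array, a change of -0.87 (adjusted p = 8.43e-06). Across the alternative fits this change ran from -1.34 to -0.42, and the CKO levels lay near the brightness filter of 6.26. A second, dimmer Mpp5 probe was below the filter and not tested, with means of 6.10 in WT and 6.13 in CKO. The positions of both probes within the transcript, and so against the deleted exons, are unknown. Median raw intensities of the arrays ran from 118.7 to 133.5. Xist, transcribed from the inactive X chromosome of females, was at 9.71 to 10.10 on WT.1, WT.2 and WT.4 but at 6.83 on WT.3 and 6.60 to 6.77 on the CKO arrays. WT.3 is therefore the one WT array on the Xist-dim side, where all 4 CKO arrays lie, and animal sex and genotype nearly coincide. CKO.3 lay away from the other CKO arrays on the second principal component, and it had high meningeal markers (given below). Among defining markers of cerebellar cells, Zic1 and Barhl1 of the granule lineage and Pcp2 of Purkinje cells were well above the filter, whereas the probes of Atoh1 and Calb1 lay below it in both groups.

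Promoter windows were searched because 30 of the 37 tested members had a positive change in CKO, though 24 did not pass the test. Each window runs from 250 bases before to 50 bases after the annotated gene start in RefSeq's GRCm38.p6 table, which holds 41 windows for 31 of the members. Motifs looked for on both strands were RE1 (with up to 2 mismatches to its consensus), the element bound by the neuronal repressor REST, and CRE (TGACGTCA, no mismatch), the element bound by CREB. Syn1 was the only member with an RE1 match, and it also held a CRE. Napa and Sh3gl2 held a CRE. The 3 windows are shown because they are the only member windows with a match, and capitals mark the matched motifs. Of these genes Syn1 and Napa rose in CKO while Sh3gl2 did not pass the test.
Syn1 (chrX:20920869-20921168, minus strand): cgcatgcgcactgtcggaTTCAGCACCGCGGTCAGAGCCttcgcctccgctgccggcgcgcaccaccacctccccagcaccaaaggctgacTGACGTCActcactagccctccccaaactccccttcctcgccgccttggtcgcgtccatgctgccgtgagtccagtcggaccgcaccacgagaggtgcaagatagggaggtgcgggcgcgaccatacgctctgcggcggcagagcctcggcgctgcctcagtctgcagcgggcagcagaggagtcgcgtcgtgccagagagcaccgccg
Napa (chr7:16098330-16098629, plus strand): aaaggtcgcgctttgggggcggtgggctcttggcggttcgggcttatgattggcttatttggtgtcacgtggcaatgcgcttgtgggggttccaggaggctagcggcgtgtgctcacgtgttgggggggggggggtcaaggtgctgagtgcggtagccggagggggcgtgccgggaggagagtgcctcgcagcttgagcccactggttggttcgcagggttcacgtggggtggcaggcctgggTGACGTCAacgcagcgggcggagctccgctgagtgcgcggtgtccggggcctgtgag
Sh3gl2 (chr4:85205206-85205505, plus strand): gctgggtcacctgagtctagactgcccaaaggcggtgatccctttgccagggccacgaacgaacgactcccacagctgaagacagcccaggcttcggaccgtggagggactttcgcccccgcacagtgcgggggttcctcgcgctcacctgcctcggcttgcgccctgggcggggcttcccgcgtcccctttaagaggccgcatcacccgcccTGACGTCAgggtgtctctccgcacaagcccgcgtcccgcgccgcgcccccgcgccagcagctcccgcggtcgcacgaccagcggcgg
In Syn1 the RE1 match covers bases 19 to 39 of the window, with 1 mismatch, and the CRE covers bases 92 to 99, so they do not overlap. The CRE lies at bases 244 to 251 in Napa, reaching the gene start, and at bases 214 to 221 in Sh3gl2. Of all 32851 windows, 15 held an RE1 by this rule (0.0457%) and 588 held a CRE (1.79%), against 1 (2.44%) and 3 (7.32%) of the 41 member windows. Among the 13181 windows of genes tested the shares were 0.0835% for RE1 and 2.65% for CRE. Member windows had a median GC content of 61.3% against 52.7% over the table, and CRE itself contains CG. A match of letters is a description and not a measured binding site. The probe of Rest was below the filter in both groups.

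Release machinery genes were on the whole slightly higher in CKO. Of the 37 tested members 12 rose and 1 fell at a limma adjusted p under 0.05, where 9.15% of all tested genes rose and 8.64% fell. Members were chosen with earlier results of these data known, so these shares describe the list and do not test it. The 12 were Syn1, Syngr3, Sv2a, Syt5, Vamp2, Stx1a, Nsf, Napa, Erc2, Dnm1, Nrxn2 and Nrxn3, and the one that fell was Sv2b. Their rises were between 0.22 and 0.57, or 1.16-fold to 1.49-fold. The median change over the 37 members was 0.17, against 0.0075 over all tested genes, and 30 of the 37 had a positive change. In bulk RNA, a different number of neurons and a different amount of RNA per neuron cannot be told apart.

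Groups did not overlap, with CKO higher, for 11 members, where 10.9% of all tested genes had such a pattern. These were 9 of the 12 genes that rose, together with Rab3a and Cplx1, which did not pass the test. Sv2b was the only member whose groups were separate in the other direction, a pattern seen in 10.2% of all tested genes. The 24 members not past the threshold had changes from -0.19 to 0.22, and for all 24 the 95% interval lay within 0.5 of 0 on either side. That bound is larger than the change of every called member except Syt5. Intervals such as that of Snap91, reaching 0.48, therefore include changes as large as those called.

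The number of members called moved with the arrays and the model. Without CKO.1 the count of risen members was 7, while without CKO.3 it was 15, and with median scaling of the arrays in place of quantile normalization it was 7. Median scaling ended the calls of Sv2a, Nsf, Napa, Dnm1 and Nrxn3, and a normexp offset of 16, no filter on dim probes or a replicate block each ended those of Sv2a and Nsf. Over all genes median scaling also turned the split of calls, from 1182 higher and 1115 lower to 792 higher and 1337 lower. When the Xist level entered the model, 2 members kept their call, Syngr3 (0.56, adjusted p = 0.0174, spanning 3.67e-04 to 0.0174 in the alternatives) and Erc2 (0.64, adjusted p = 0.0212, spanning 0.00114 to 0.0212 in the alternatives). The other 11 did not, with an adjusted p in that model from 0.0539 for Nrxn3 to 0.99 for Syt5. Only WT.3 separates the Xist level from genotype, and standard errors of the 13 called members rose to between 0.109 and 0.178 in that fit, from 0.068 to 0.147 without it. For 8 of the 13 the change was larger in size with the covariate than without. Of the 12 members that rose, 11 had WT.3 below every CKO array, and Syt5 was the exception. For the 9 risen members whose groups did not overlap, this order follows by definition. WT.3 was also the lowest WT array for 8 of these 12, where it was the lowest for 28.8% of all tested genes. An effect of sex was not tested by this order of arrays.

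**Figure D1:**
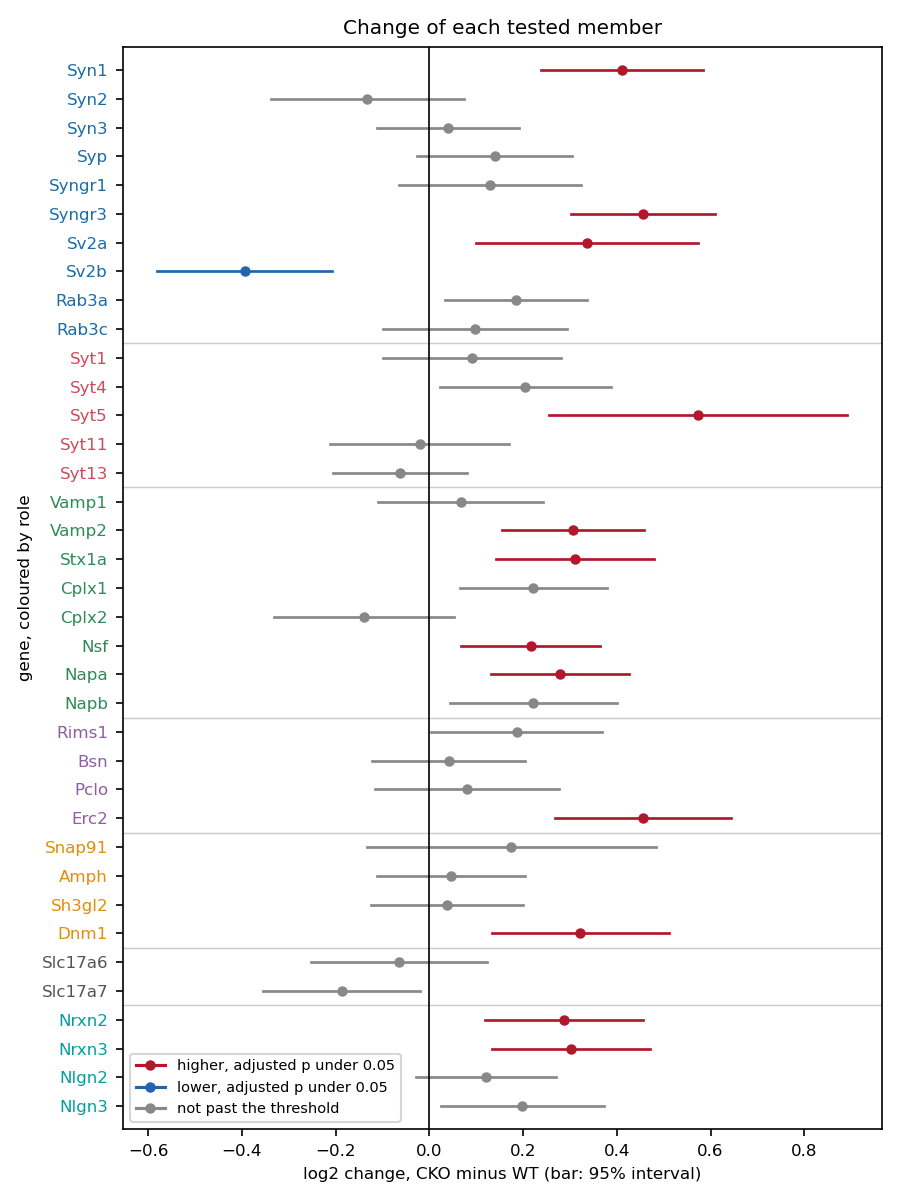
Log2 change of each of the 37 tested members, CKO minus WT, with its 95% interval; genes are coloured by role on the y axis, red points rose, blue fell and grey did not pass the adjusted threshold. The 12 red points lie between 0.22 and 0.57, Sv2b lies at -0.39 and the glutamate transporters lie left of 0.

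**Figure D2:**
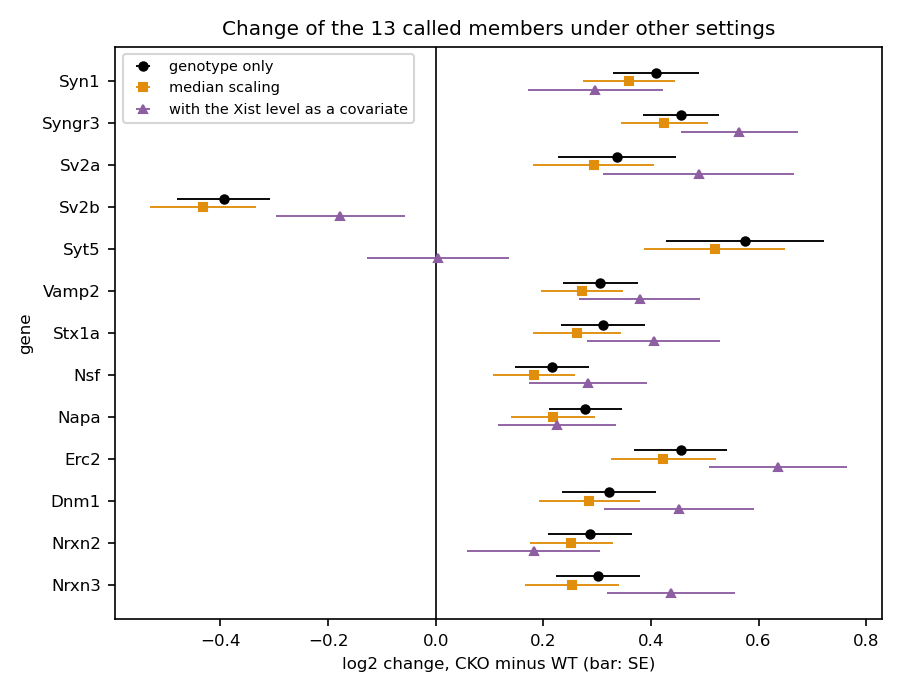
Log2 change of the 13 called members, CKO minus WT, with SE bars, in the fit with genotype only, with median scaling and with the Xist level as a covariate. Syt5 drops from 0.57 to near 0 with the Xist covariate, whereas Syngr3 and Erc2 are larger with it than without.

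Proteins of the vesicle itself gave 3 rises and 1 fall among 10 tested members. Counts by role, here and below, stand beside 9.15% of all tested genes that rose and 8.64% that fell. Syn1, the synapsin that ties vesicles to actin and to each other, was at 11.33, 11.15, 11.35 and 11.08 in WT and 11.65, 11.71, 11.51 and 11.69 in CKO. All CKO arrays lay above all WT arrays. It rose by 0.41 (SE 0.080, 95% interval 0.24 to 0.58, limma adjusted p = 0.00359, 0.00123 to 0.189 across alternatives). The other synapsins gave no call: Syn2 was at 9.64 to 10.11 in WT and 9.63 to 9.80 in CKO, a change of -0.13 (95% interval -0.34 to 0.07, adjusted p = 0.397). For Syn3 the change was 0.04 (95% interval -0.11 to 0.19), with levels of 6.91 to 6.99 and 6.88 to 7.13. WT.1 was the highest of the 8 arrays for Syn2, and the groups overlapped for both genes.

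The synaptogyrins and synaptophysin are related vesicle proteins that span the membrane 4 times. Syngr3 was at 10.82, 10.67, 10.62 and 10.78 in WT and 11.20, 11.19, 11.08 and 11.24 in CKO, with a gap between the groups wider than either group's range. It rose by 0.46 (SE 0.071, 95% interval 0.30 to 0.61, limma adjusted p = 8.69e-04), the smallest adjusted p among the members, and kept its call without any single array. Syngr1 gave a difference of 0.13 (95% interval -0.06 to 0.32, adjusted p = 0.376) and Syp, encoding synaptophysin, one of 0.14 (95% interval -0.03 to 0.30, adjusted p = 0.25). In both, WT and CKO arrays overlapped.

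Sv2a and Sv2b encode closely related vesicle glycoproteins with a transporter fold, and their RNAs went in opposite directions. Sv2b was at 10.42, 10.56, 10.17 and 10.31 in WT and 9.98, 9.96, 9.87 and 10.07 in CKO, every CKO array below every WT array. It dropped by 0.39 in log2 units (SE 0.086, 95% interval -0.58 to -0.21, limma adjusted p = 0.00713, 0.00216 to 0.421 across alternatives), and was called without each single array in turn. Sv2a was at 10.95, 11.23, 10.91 and 11.24 in WT and 11.64, 11.50, 11.35 and 11.17 in CKO, where CKO.4 lay below WT.2 and WT.4. It rose by 0.34 (SE 0.109, 95% interval 0.10 to 0.57, limma adjusted p = 0.0498), close to the threshold. Leaving out WT.1, WT.2, WT.3 or either of CKO.1 and CKO.2 gave Sv2a an adjusted p of 0.0549 to 0.143, spanning 0.0225 to 0.143 in the alternatives. The RAB3 proteins are small GTPases of the vesicle surface: Rab3a was at 11.95 to 12.06 in WT and 12.10 to 12.32 in CKO, a change of 0.19 (adjusted p = 0.0889) with groups that did not overlap. Rab3c gave a difference of 0.10 (adjusted p = 0.533).

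**Figure D3:**
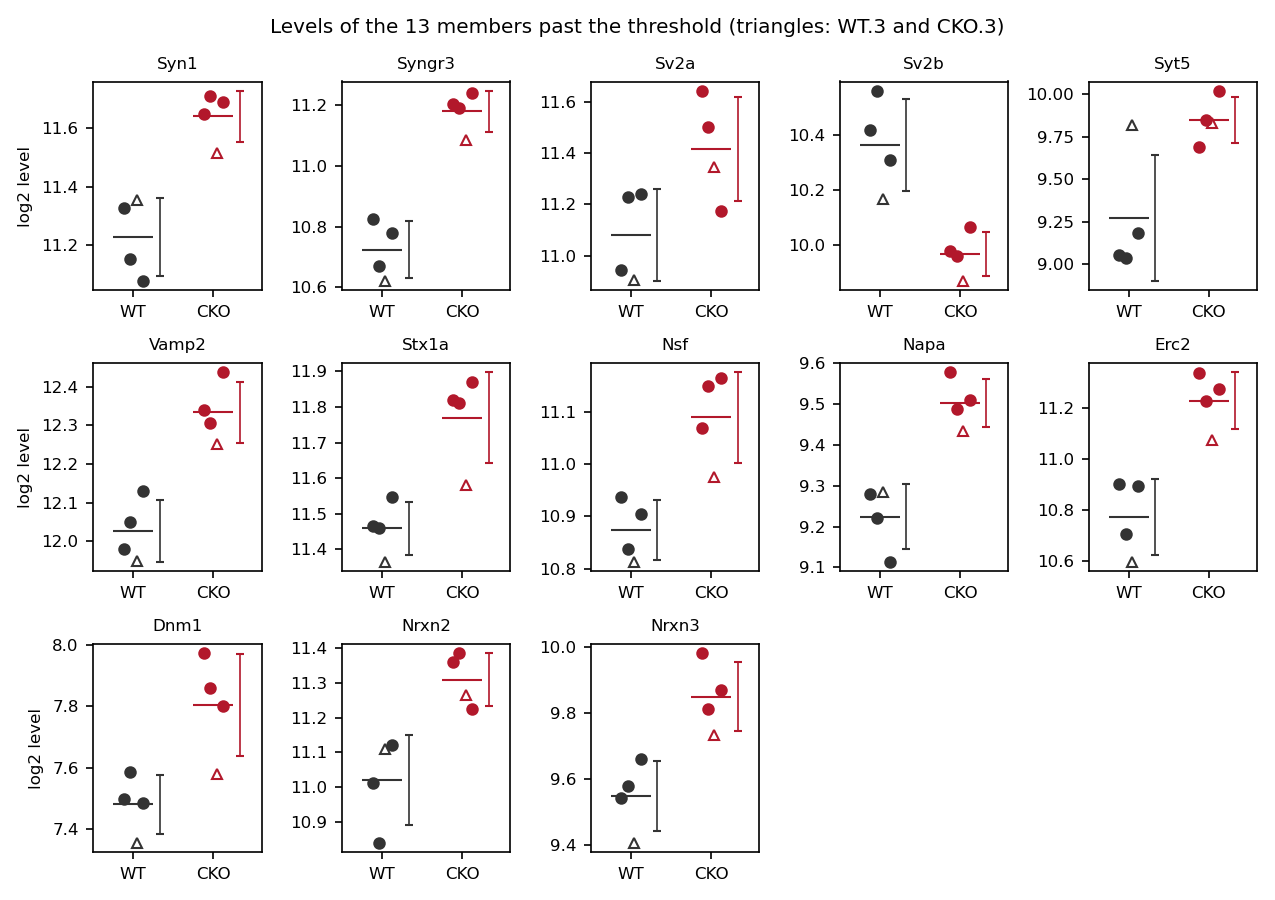
Log2 level of each of the 13 called members on every array, WT in black and CKO in red, with group means as horizontal lines and SD bars beside them; WT.3 and CKO.3 are open triangles and y axes differ. CKO.3 is the CKO array nearest to WT for 9 of the 12 genes that rose, and WT.3 of Syt5, at 9.82, sits among the CKO arrays.

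Among the synaptotagmins, the calcium-binding proteins of the vesicle, 1 of 5 tested members rose. Syt5 was at 9.05, 9.04, 9.82 and 9.18 in WT and 9.69, 9.85, 9.83 and 10.02 in CKO. WT.3 lay inside the CKO range, and the other 3 WT arrays lay well below it. Its change of 0.57 (SE 0.147, 95% interval 0.26 to 0.89, limma adjusted p = 0.0166) was the largest of the 37 tested members and had the largest standard error. The call was lost without WT.1, WT.2 or CKO.4 (adjusted p 0.0536 to 0.0596, spanning 2.65e-04 to 0.99 in the alternatives), and with the Xist covariate the change was 0.0037. WT.3 is also the only WT array with dim Xist.

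Syt1, the calcium sensor of fast release, was at 11.32 to 11.62 in WT and 11.39 to 11.71 in CKO, a change of 0.09 (95% interval -0.10 to 0.28, adjusted p = 0.551). Syt4, a synaptotagmin found mainly on dense-core and recycling vesicles, gave a difference of 0.20 (adjusted p = 0.116), and without WT.3 its adjusted p was 0.0385, spanning 0.011 to 0.983 in the alternatives. Syt11 and Syt13, which lack calcium-dependent membrane binding, gave differences of -0.02 (95% interval -0.21 to 0.17) and -0.06 (95% interval -0.21 to 0.08). For none of these 4 were the groups separate.

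In the fusion machinery 4 of 8 tested members rose and 0 fell, among them a SNARE of each membrane. Vamp2, the main synaptobrevin of brain vesicles, was at 11.98, 12.05, 11.95 and 12.13 in WT and 12.34, 12.31, 12.25 and 12.44 in CKO. Stx1a, the syntaxin of the plasma membrane, was at 11.47, 11.46, 11.36 and 11.55 in WT and 11.82, 11.81, 11.58 and 11.87 in CKO. In both genes the groups were separate, and CKO.3 was the lowest CKO array. Vamp2 rose by 0.31 (SE 0.070, 95% interval 0.15 to 0.46, limma adjusted p = 0.00905, 0.00447 to 0.0689 across alternatives) and Stx1a by 0.31 (SE 0.078, 95% interval 0.14 to 0.48, limma adjusted p = 0.0146, 0.00273 to 0.0767 across alternatives), and both were called without each single array in turn. Vamp1, the other synaptobrevin, gave a difference of 0.07 (95% interval -0.11 to 0.24, adjusted p = 0.649).

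Snap25, the remaining neuronal SNARE, could not be read. Its single probe gave raw intensities of 81.7 to 88.5 in WT and 74.3 to 92.6 in CKO, and log2 levels of 6.10 to 6.28 and 6.05 to 6.40, with group means below the filter level of 6.26. No change of Snap25 was tested.

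Among the 3 genes that take SNARE complexes apart, Napa and Nsf rose. Napa, encoding the adaptor alpha-SNAP, was at 9.28, 9.22, 9.28 and 9.11 in WT and 9.58, 9.49, 9.44 and 9.51 in CKO, and Nsf, the ATPase it recruits, was at 10.94, 10.84, 10.81 and 10.90 in WT and 11.07, 11.15, 10.98 and 11.16 in CKO. For both genes all CKO arrays were above all WT arrays. Napa rose by 0.28 (SE 0.068, 95% interval 0.13 to 0.43, limma adjusted p = 0.013) and kept its call without each single array, but as the mean of its 3 probes the change was 0.17 (adjusted p = 0.0576, spanning 0.00613 to 0.247 in the alternatives). Nsf rose by 0.22 (SE 0.069, 95% interval 0.07 to 0.36, limma adjusted p = 0.0459) and lost the call without any single array other than CKO.3 (adjusted p 0.0594 to 0.123, spanning 0.0228 to 0.15 in the alternatives). Napb, for beta-SNAP, gave a difference of 0.22 (adjusted p = 0.0844), and without CKO.3 its adjusted p was 0.0193, spanning 0.0193 to 0.22 in the alternatives.

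Neither complexin, proteins that bind assembled SNAREs, passed the test. Cplx1 was at 13.07, 13.11, 12.97 and 13.01 in WT and 13.22, 13.36, 13.13 and 13.34 in CKO, with separate groups. Its change of 0.22 (95% interval 0.06 to 0.38) missed the threshold (adjusted p = 0.0518) but passed it in 8 of the 20 alternatives. Without CKO.3 the adjusted p was 0.0208, spanning 0.0208 to 0.248 in the alternatives. Cplx2 was at 10.47 to 10.77 in WT and 10.30 to 10.63 in CKO, a change of -0.14 (95% interval -0.33 to 0.05, adjusted p = 0.331). The difference between the complexins in their change was not tested.

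At the active zone, the release site on the presynaptic membrane, 1 of 4 tested members rose. Erc2, a scaffold protein that binds RIM and Bassoon, was at 10.90, 10.70, 10.59 and 10.89 in WT and 11.34, 11.23, 11.07 and 11.28 in CKO. Every CKO array lay above every WT array, with CKO.3 the lowest of them. It rose by 0.46 (SE 0.087, 95% interval 0.27 to 0.64, limma adjusted p = 0.00313) and was called in all 20 alternatives. Rims1, which recruits calcium channels and RAB3, gave a difference of 0.19 (95% interval 0.00 to 0.37, adjusted p = 0.159), and without WT.1 its adjusted p was 0.0479, spanning 0.0479 to 0.327 in the alternatives. The giant scaffolds Bassoon and Piccolo gave small values, 0.04 for Bsn (95% interval -0.12 to 0.20) and 0.08 for Pclo (95% interval -0.12 to 0.28). The Bsn probe was dim, at 6.34 to 6.56 in WT and 6.35 to 6.60 in CKO, which limits what change it could show.

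In vesicle endocytosis 1 of 4 tested members rose, where 9.15% of all tested genes did. Dnm1, the neuronal dynamin that pinches vesicles off, was at 7.50, 7.59, 7.36 and 7.49 in WT and 7.97, 7.86, 7.58 and 7.80 in CKO. The groups overlapped by 1 array, as CKO.3 lay just below WT.2. It rose by 0.32 (SE 0.088, 95% interval 0.13 to 0.51, limma adjusted p = 0.0224) and lost the call when WT.3, CKO.4 or either of CKO.1 and CKO.2 was left out (adjusted p 0.052 to 0.0732, spanning 0.00344 to 0.0786 in the alternatives). Amph, for the dynamin partner amphiphysin, gave a difference of 0.05 (95% interval -0.11 to 0.20), and Sh3gl2, for endophilin, one of 0.04 (95% interval -0.12 to 0.20). Snap91, the clathrin adaptor AP180, spread widely, from 8.13 to 8.73 in WT and 8.46 to 8.99 in CKO, with a change of 0.17 (95% interval -0.13 to 0.48, adjusted p = 0.466).

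Neither vesicular glutamate transporter passed the test, and both had a change below 0. Slc17a6, encoding VGLUT2, was at 12.23, 11.93, 11.86 and 11.84 in WT and 11.95, 11.85, 11.85 and 11.95 in CKO. WT.1 was the highest array and the remaining 7 arrays lay close together. The change was -0.07 (95% interval -0.25 to 0.12, adjusted p = 0.68). Slc17a7, encoding VGLUT1, the transporter of mature granule cells, had a dim probe at 6.64 to 6.84 in WT and 6.45 to 6.64 in CKO, with a change of -0.19 (95% interval -0.35 to -0.02, adjusted p = 0.119).

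Neurexins of the nerve ending and neuroligins of the postsynaptic side bind each other across the cleft. Nrxn2 was at 11.01, 10.84, 11.11 and 11.12 in WT and 11.36, 11.39, 11.26 and 11.22 in CKO, and Nrxn3 was at 9.54, 9.58, 9.41 and 9.66 in WT and 9.98, 9.81, 9.73 and 9.87 in CKO. In both, all CKO arrays were above all WT arrays. Nrxn2 rose by 0.29 (SE 0.078, 95% interval 0.12 to 0.46, limma adjusted p = 0.0223) and lost the call if any of WT.1, WT.2 and CKO.1, or CKO.2, was left out (adjusted p 0.0523 to 0.0738, spanning 0.00732 to 0.425 in the alternatives). Nrxn3 rose by 0.30 (SE 0.078, 95% interval 0.13 to 0.47, limma adjusted p = 0.017) and lost the call without CKO.1 (adjusted p = 0.0588, spanning 0.0071 to 0.506 in the alternatives). As means of their probes Nrxn2 gave a difference of 0.17 and Nrxn3 one of 0.09, neither past the threshold. Nlgn2, the neuroligin of inhibitory synapses, gave a difference of 0.12 (95% interval -0.03 to 0.27). Nlgn3 gave a difference of 0.20 (adjusted p = 0.114), and without CKO.3 its adjusted p was 0.0473, spanning 0.0473 to 0.549 in the alternatives.

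Several probes were available for 14 members, and they did not always give the same answer. Adjusted over all 19272 probes tested, both probes of Syn1 rose (0.41 and 0.34), as did both of Sv2a (0.34 and 0.44) and both of Dnm1 (0.32 and 0.52). For Napa the dimmer probes gave 0.05 (adjusted p = 0.705) and 0.16 (adjusted p = 0.154), short of the threshold. The second probe of Nrxn3 gave -0.13 (adjusted p = 0.424), of the opposite sign. That of Nrxn2, with a mean of 6.26 in WT, was at the filter level.

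Probes other than the brightest also gave calls where the chosen one did not. A second probe of Snap91 rose by 0.35 (adjusted p = 0.0257) and a second probe of Syngr1 rose by 0.30 (adjusted p = 0.0185). Another Syngr1 probe was at -0.18 (adjusted p = 0.102). In all, 5 of 22 further probes of members rose and 0 fell, where 8.15% of all 19272 probes tested rose and 7.98% fell. Which transcripts the probes of a gene read is not known here.

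**Figure D4:**
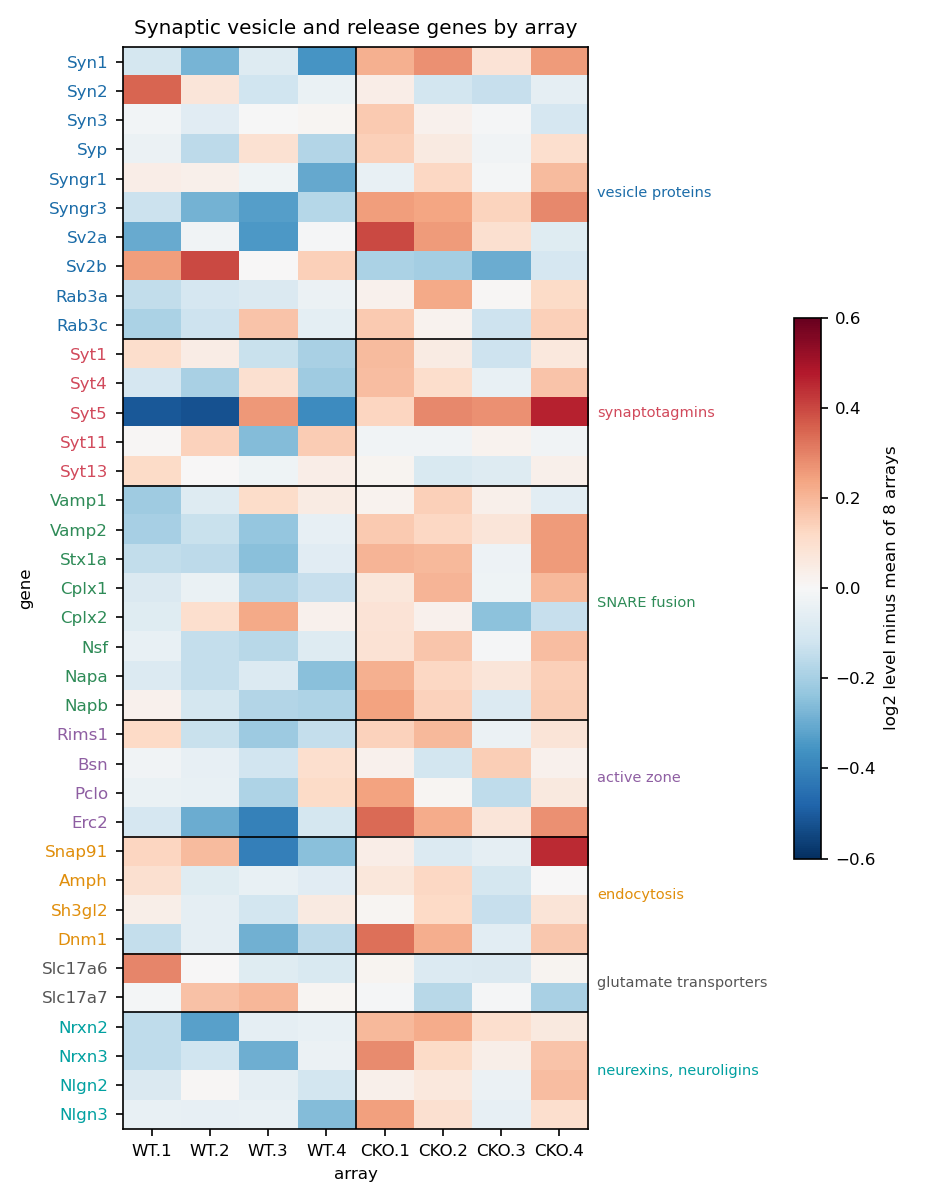
Log2 level of each of the 37 tested members on each array, minus its mean over the 8 arrays, with rows grouped and coloured by role. The CKO columns are mostly red except for column CKO.3, and the Sv2b row is blue in CKO.

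CKO.3 was the lowest of the 4 CKO arrays for 26 of 37 members, whereas over all tested genes it was the lowest for 29.1%. It was the CKO array nearest to the WT mean for 20 of the 37, since for members such as Sv2b and Cplx2 the lowest array lay farthest from WT. Among the 12 genes that rose it was the lowest CKO array for 9. The mean deviation of the 37 members from their 8-array mean was -0.04, -0.07, -0.10 and -0.09 in WT and 0.13, 0.09, -0.02 and 0.11 in CKO, so that CKO.3 lay between the groups.

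CKO.3 also stood out for marker lists of other cells. Markers of meninges (Col1a1, Col1a2, Col3a1, Dcn, Lum and Igf2; 6 of 6 tested) had a mean deviation of 1.55 in CKO.3, against -0.28 to 0.07 in the other CKO arrays and -0.58 to 0.02 in WT. Their summed linear intensity was 3216 to 4520 in WT and 4385 to 14818 in CKO. Proliferation markers, 10 of 11 tested lower in CKO, were at -0.01 on CKO.3 against -0.62 to -0.45 on the remaining CKO arrays. Granule progenitor markers, 7 of 7 lower, were at -0.19 and -0.74 to -0.58. The summed intensity of proliferation markers was 10198 to 12159 in WT and 5000 to 7809 in CKO, and that of granule progenitor markers 20228 to 24682 and 11717 to 14804. Atoh1, Mycn, Gli1 and Ccna2 of these lists were below the filter. The part of these shifts in the release machinery result was not tested.

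Markers of neuron types were measured on the same arrays, where 9.15% of all tested genes rose and 8.64% fell. Among pan-neuronal markers 6 of 14 tested rose and 1, Rbfox3, fell, with a median change of 0.24 and a summed intensity of 65208 to 68448 in WT and 71449 to 83241 in CKO. Purkinje markers gave 5 rises and 1 fall among 8 tested, with Calb1 and Pcp4 below the filter. Their summed intensity was 10901 to 12056 in WT and 15848 to 17224 in CKO. The fall was Pvalb (-1.30, limma adjusted p = 5.37e-04), larger in size than the largest rise, Foxp2 (0.90, limma adjusted p = 1.27e-04). Markers listed for granule neurons gave 0 rises and 6 falls among 7 tested (25515 to 29103 in WT and 20074 to 21400 in CKO). Pax6, Nfia and Gabra6 of this list were below the filter. Of 3 tested GABAergic markers 1 rose, with Gad2, Dlx1 and Dlx2 below the filter. The part of these shifts in the members' changes was likewise not tested.

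**Figure D5:**
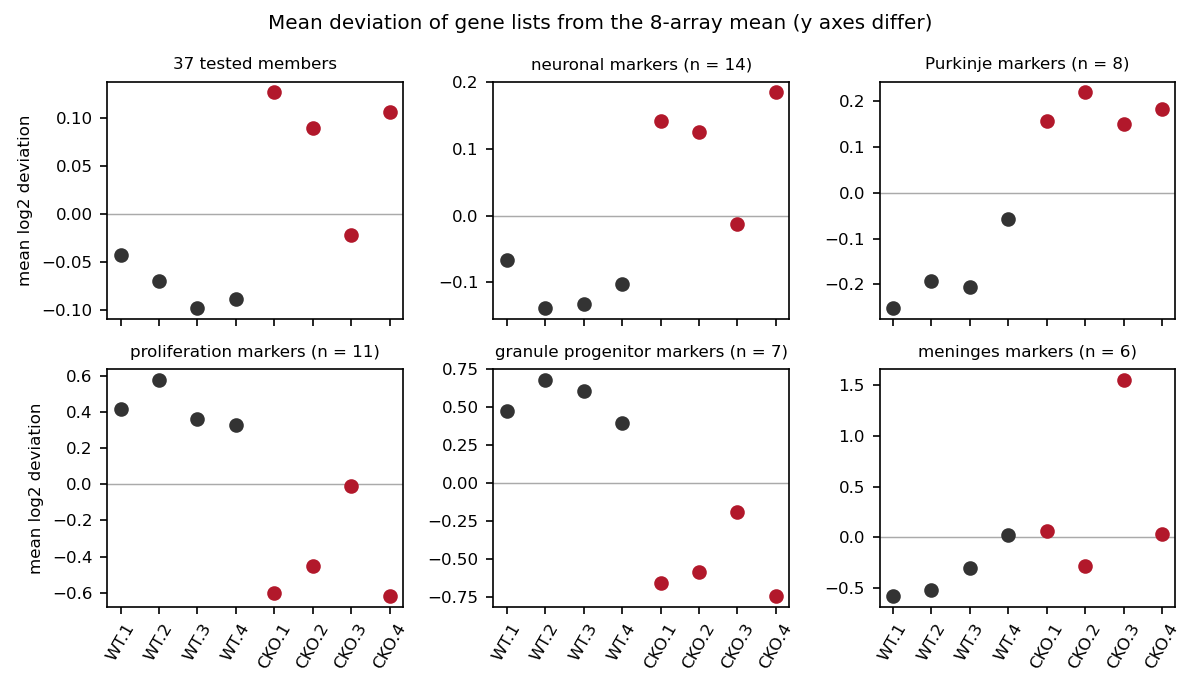
Mean log2 deviation from the 8-array mean, per array, for the 37 tested members and for 5 marker lists, WT in black and CKO in red; y axes differ. CKO.3 lies nearest to WT for members, neuronal, proliferation and progenitor markers and stands at 1.55 for meningeal markers.

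Microglia markers gave 9 rises among 10 tested (summed intensity 1508 to 1703 in WT and 2280 to 2765 in CKO). Astroglia and radial glia markers gave 1 rise and 1 fall among 8 tested, and oligodendrocyte lineage markers 0 rises and 1 fall among 5. Endothelial markers gave 2 rises among 7, markers of cerebellar nuclei and unipolar brush cells 2 rises and 1 fall among 5, and blood markers 0 calls among 2.

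A further 115 genes were listed, called further presynaptic genes here. They also include postsynaptic adhesion partners and the proton pump, which is not specific to nerve endings. Of the 115, 92 were tested, of which 23 rose, 4 fell and 65 did not pass the test. These are 25% and 4.35% of the genes tested, against 9.15% and 8.64% over all tested genes. Such shares are again only a description, since these lists too were chosen with earlier results known. A positive change was seen in 69 of the 92 (75%), where 52.2% of all tested genes had one, and the median change was 0.12. With median scaling 11 rose and 5 fell, and with the Xist covariate 8 rose and 1 fell. The count of rises was 14 without WT.2, 13 without CKO.1 and 12 without CKO.4, and that of falls 1 or 2 without any single array. Of the genes named in the following, Cadps2, Cadps, Slc17a8, Slc32a1, Dnajc6, Lrrtm1 and Atp6v1h were called in all 20 alternatives. Unc13c, Cltb, Clstn3 and Adgrl3 lost their call with the Xist covariate and Doc2b with median scaling.

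In priming and SNARE control 7 of 23 tested genes rose and 2 fell. Cadps2, which primes dense-core vesicles and is made by granule cells, dropped by 0.93 in log2 units (adjusted p = 1.71e-05), while its relative Cadps rose by 0.37 (adjusted p = 0.00674). Cadps2 was at 12.13, 12.25, 12.03 and 12.28 in WT and 11.30, 11.22, 11.34 and 11.10 in CKO, and Cadps at 10.33 to 10.57 and 10.72 to 10.97, without overlap in either gene. Unc13c, the Munc13 priming factor of the cerebellum, rose by 0.48 (adjusted p = 0.0126) and Doc2b, a calcium sensor, by 0.33 (adjusted p = 0.0162). All 4 were called without each single array.

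Among further vesicle proteins 5 of 20 tested rose and 1 fell. Slc17a8, the vesicular glutamate transporter VGLUT3, was at 8.55, 8.47, 8.07 and 8.15 in WT and 8.95, 8.63, 9.25 and 9.47 in CKO, and rose by 0.77 (adjusted p = 0.00529). Slc32a1, the vesicular GABA transporter, rose by 0.36 (adjusted p = 0.00663), with levels of 12.25 to 12.56 in WT and 12.71 to 12.88 in CKO. VGLUT1 and VGLUT2 gave no call, and the difference between transporters was not tested. Scamp1, a secretory carrier protein, rose by 0.26 (adjusted p = 0.0189) but not when WT.1, CKO.4 or either of CKO.1 and CKO.2 was left out (adjusted p 0.0514 to 0.0566, spanning 0.0067 to 0.181 in the alternatives). Syt9 rose by 0.25 (adjusted p = 0.0293) but not without WT.2, WT.4, CKO.1, CKO.3 or CKO.4 (adjusted p 0.0597 to 0.0931, spanning 0.0202 to 0.45 in the alternatives).

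Of 18 further endocytosis genes tested 3 rose and 0 fell. Dnajc6, the auxilin that uncoats clathrin, rose by 0.41 (adjusted p = 0.00372), Cltb, a clathrin light chain, by 0.41 (adjusted p = 0.00461) and Ap2b1, a subunit of the AP2 adaptor, by 0.25 (adjusted p = 0.0384). Ap2b1 lost the call without any single array other than CKO.3 (adjusted p 0.0541 to 0.122, spanning 0.0169 to 0.373 in the alternatives), while the other genes kept theirs.

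Synaptic adhesion genes outside the members gave 4 rises and 1 fall among 16 tested. Lrrtm1, a postsynaptic partner of neurexins, averaged 8.69 in the 4 WT arrays (SD 0.21) against 9.39 in the 4 CKO arrays (SD 0.18) and rose by 0.69 (adjusted p = 0.00108). Adgrl3, the receptor latrophilin, rose by 0.41 (adjusted p = 0.00348) and Clstn3, for a calsyntenin, by 0.36 (adjusted p = 0.00653), all without overlap between groups. Ptprd, a receptor phosphatase, fell by 0.22 on the log2 scale (adjusted p = 0.0429) but not without any single array other than WT.2 (adjusted p 0.0653 to 0.117, spanning 0.0249 to 0.234 in the alternatives).

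The proton pump that acidifies vesicles and so powers their filling gave 4 rises and 0 falls among 15 tested subunits, with a median change of 0.17. Atp6v1h rose by 0.30 (adjusted p = 0.00825), Atp6v0a1 by 0.27 (adjusted p = 0.0157), Atp6v1e1 by 0.26 (adjusted p = 0.0144) and Atp6v0b by 0.21 (adjusted p = 0.0431). Atp6v1h kept its call without each single array. Atp6v1e1 lost it without WT.2 (adjusted p = 0.0513, spanning 0.00419 to 0.192 in the alternatives), Atp6v0a1 without WT.2, CKO.1 or CKO.4 (adjusted p 0.0513 to 0.0533, spanning 0.00389 to 0.233) and Atp6v0b whenever 1 array was dropped, except WT.3 (adjusted p 0.0637 to 0.113, spanning 0.0287 to 0.527). The pump also works in lysosomes of every cell type, so its RNA is not specific to nerve endings.

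Of REST and 4 of its cofactors, listed for the RE1 search, 4 were tested, 2 fell and 0 rose. Over all tested genes 8.64% fell and 9.15% rose. Those that fell were Rcor2 (-0.60, adjusted p = 5.55e-04) and Rcor1 (-0.30, adjusted p = 0.0165), named after their values were seen. Both had groups that did not overlap, a pattern seen in this direction in 10.2% of all tested genes. A link between these falls and the members' changes was not tested.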

How the data were processed

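Total RNA of 8 mouse cerebella was hybridised to Illumina BeadArrays. The authors exported the deposited intensity per probe from BeadStudio, per the submitters' processing notes (version and background handling not given in the sources used here), and its array medians differ. The second deposited table holds log2 values that match quantile-normalized intensities to within 0.0137, so the authors' log2 table served as an alternative. Gene symbols came from the platform annotation (23978 of 25697 probes), and missing list symbols were matched through Entrez IDs.

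Intensities were corrected by normexp (offset 50), quantile-normalized and taken to log2 in limma 3.58.1 (R 4.3.3). The design's neqc and detection filter were not used, as the columns hold no detection p-values, and the normexp route it also names was. A gene's brightest probe was tested if its mean exceeded the lower quartile of probe means (6.26). Linear models (lmFit, eBayes) had genotype as the only term, two-sided, Benjamini-Hochberg adjusted over 12912 genes, threshold 0.05. An offset of 50 pulls changes of dim genes towards 0. Tested on simulated data of this comparison over 12912 genes, the fit recovered 81% of 100 changes of 0.5 log2 and 99% of 100 changes of 1 log2. Among the genes left unchanged 10 were called. Smaller changes, such as those of all called members except Syt5, were not simulated. Only 200 genes were changed, and noise was drawn independently for each gene and array. Precision is limited by 4 arrays per group. Members and lists were chosen with earlier results of these data known. All members are named. Of each further presynaptic list, up to 4 called genes with separate groups and the largest changes are named, and up to 2 of each marker list could be, but marker lists are given mostly as counts. Alternatives covered background, scaling, filter, probe rule, array weights, variance trend, replicate block, each array left out, WT.3 and CKO.3 left out, and the Xist level. Figures were drawn with matplotlib 3.10.9.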

Additional observations from a re-analysis of the deposited data

Results flagged for a closer look

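In 3 of 76 sets of 4 arrays (38 members in each group) 1 array lay far from the other 3 by Dixon's criterion, where chance flags about 1 in 20 sets. Syt11 was at 13.81 on CKO.3 while the other CKO arrays shared a level of 13.76 after normalization. Its raw intensities on CKO.1 to CKO.4 were 14478, 12412, 14227 and 12338, so CKO.3 did not stand apart before normalization. Amph was at 10.29 on WT.1 against 10.12 to 10.15 on the other WT arrays. Nlgn3 was at 8.58 on WT.4 against 8.79 to 8.80 on the other WT arrays.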

How the results depend on the processing

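With 20 alternatives (1, the variance trend, chosen after seeing the data), 656 member values kept direction and side of the threshold, 50 lost a call, 16 gained one and 15 changed sign. Members counted higher (12) moved to 7 with median scaling and to 2 with the Xist covariate, and members counted lower (1) to 0 with that covariate. Leaving out each array gave 7 to 15 higher members and 1 lower in every case. Further presynaptic genes counted higher (23) moved to 11 with median scaling and 8 with the Xist covariate, with 12 to 25 when each array was left out. Those counted lower (4) moved to 2 with offset 16, with no filter, with the mean of probes, with the replicate block and without both WT.3 and CKO.3, to 1 with the Xist covariate, and to 1 to 2 when each array was left out. All genes counted higher and lower (1182 and 1115) moved to 363 and 430 with the Xist covariate, and to 782 to 1299 and 792 to 1265 when each array was left out. For the shift under the covariate and the scaling the cause was not tested.

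The signs that changed were all of members not past the threshold in either fit: with the Xist covariate Syn2 (0.081), Syp (-0.020), Rab3c (-0.14), Syt11 (0.25), Syt13 (0.0016), Vamp1 (-0.098) and Slc17a6 (0.068); with the mean of probes Syt11 (0.0063) and Amph (-0.0034); with each array left out in turn Slc17a6 (-0.106 to 0.021), Syt11 (-0.111 to 0.027), Syn3 (-0.0068 to 0.079) and Bsn (-0.00039 to 0.086); and without both WT.3 and CKO.3 Bsn (-0.032).

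Replicate numbers were not taken to pair the animals, as the labels do not say so. Deviations of arrays with the same number correlated at 0.061, -0.036, 0.15 and -0.047, and only the arrays numbered 3 matched each other best. Such correlations cannot show that the animals were unpaired. With the replicate block 10 members were higher and 1 lower, and 1090 and 1057 genes overall. The filter on detection p-values could not be fitted. Dim probes (Snap25, Bsn, Slc17a7, Rab3c) limit what change could be seen.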
